A study of Caenorhabditis elegans with 48 samples.

Results

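The 10 genes described here, ama-1, rpb-2, rpb-3, rpb-4, rpb-5, rpb-6, rpb-7, rpb-8, rpb-9 and rpb-12, encode subunits of RNA polymerase II in Caenorhabditis elegans. They were taken by gene name from the Ensembl annotation of the WBcel235 assembly and matched to the WBGene identifiers in the count table, and they are 10 of 46911 genes counted. Of the 10, 9 passed the filter on low counts, more than 10 counts in at least 4 libraries, and rpb-6 did not. They were followed in 48 poly(A) RNA-seq libraries from whole L1 larvae arrested by starvation, with 4 libraries in each of 12 groups.

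RNA polymerase II is the enzyme that transcribes protein-coding genes. AMA-1 is its largest subunit and carries the C-terminal domain, a repeated tail that is phosphorylated through the transcription cycle, and AMA-1 and RPB-2 together form the active centre. In the auxin-inducible degron system, the plant F-box protein TIR1 binds auxin and a degron-tagged protein and sends the tagged protein to the proteasome, so the direct target is the AMA-1 protein, whereas the ama-1 transcript is what was measured here. L1 arrest is a developmental halt that larvae enter when they hatch without food.

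In LRB389, genotype Peft-3::TIR1; ama-1::AID (ieSi57 II; ama-1(syb1513) IV), TIR1 was driven by the eft-3 promoter, used for the soma. In LRB387, genotype Pgld-1::TIR1; ama-1::AID (ieSi64 II; ama-1(syb1513) IV), it was driven by the gld-1 promoter, used for the germline. CA1200 carried Peft-3::TIR1 alone and CA1352 carried Pgld-1::TIR1 alone, with an untagged ama-1. Each strain was collected at 36 h of starvation, and at 132 h after 100 µM auxin or its ethanol vehicle had been added at 36 h. The degron, with linkers and 3x-FLAG, sits just before the stop codon of ama-1, so both tagged strains carry it at 36 h and in ethanol as well. LRB389 grew more slowly and needed more adults for each collection, and LRB389 and LRB387 share 1 tagged allele. For the slower growth of LRB389 without auxin, the paper proposes some background degradation of AMA-1. Every library is a pool of whole larvae, in which fewer cells of a type and less RNA per cell cannot be told apart. The 4 libraries of a group are numbered replicates, and the p-values measure the spread between these libraries.

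Libraries held 5755041 to 18052333 counts assigned to genes, with a median of 11040338. ERCC spike-ins, synthetic RNAs added in proportion to total RNA, came to 1.19% to 9.59% of the protein-coding count. They came to 3.81% to 9.59% in LRB389 auxin libraries and 1.60% to 2.68% in LRB389 ethanol libraries, and 1 CA1352 ethanol library, replicate 4, stood apart at 7.35% against 1.83% to 2.31% in its group. Ribosomal RNA genes took 3.29% to 27.6% of gene counts in LRB389 auxin libraries and 2.68% to 9.52% in LRB389 ethanol libraries. Levels below are counts per 1000000 protein-coding counts (CPM), or counts per 1000 ERCC counts, which are relative to total RNA and not to a larva. Folds on the relative scale came from an edgeR quasi-likelihood fit over all 48 libraries with upper-quartile scaling and 1 factor of unwanted variation estimated from the spike-ins, and folds per ERCC came from a like fit with the ERCC total as the library size. An adjusted p under 0.05, Benjamini-Hochberg over the 15549 protein-coding genes tested, counted as called.

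Counts of ama-1 ran from 1245 to 12318 a library (median 4773), against 448 to 5175 (median 2307) for rpb-2, which encodes the second largest subunit. Divided by exon length, the mean levels over all libraries were 131 CPM per kb for rpb-5, 97.4 for rpb-7, 90.2 for ama-1, 85.1 for rpb-8, 58.6 for rpb-4, 57.3 for rpb-2, 51.04 for rpb-9, 31.5 for rpb-3 and 21.4 for rpb-12. rpb-5 led this order in 7 of the 8 groups collected at 132 h, and ama-1 led it only in LRB389 auxin libraries, at 197 ± 22.1 CPM per kb (SD, n = 4), where its range overlapped that of rpb-5 (157 ± 22.02). At 36 h rpb-9 led in LRB387, CA1200 and CA1352 and ama-1 in LRB389, and only in CA1200 was the leader clear of the next gene. There rpb-9, from 51.2 CPM per kb, was clear of ama-1 but overlapped rpb-7, which reached 52.9.

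rpb-6, whose product is shared by polymerases I, II and III, is a single-exon gene of 414 bases and was hardly counted. It had 0 to 6 counts a library, 70 in all, and was at 0 in 22 of the 48 libraries. It was at 0 in every CA1352 ethanol library. In CPM it was at 0.121 to 0.592 in CA1200 ethanol libraries and 0.219 to 0.419 in LRB389 auxin libraries, and every other group had a library at 0. Differences between groups were not tested for this gene. A count of 0 allows up to 3 counts in a library. The counts are of sequenced fragments without molecular identifiers, and such limits cover counting error only.

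ama-1 lies on chromosome IV at 4248070 to 4258169 (WBcel235, plus strand), with 6020 annotated exon bases that overlap no other gene. The other members lie on chromosomes I, II, III, IV and V. Among all 10, only rpb-7 shares exon bases with another gene, 4 bases (0.673%) with Y54E10BR.2 on the opposite strand.

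**Figure D1:**
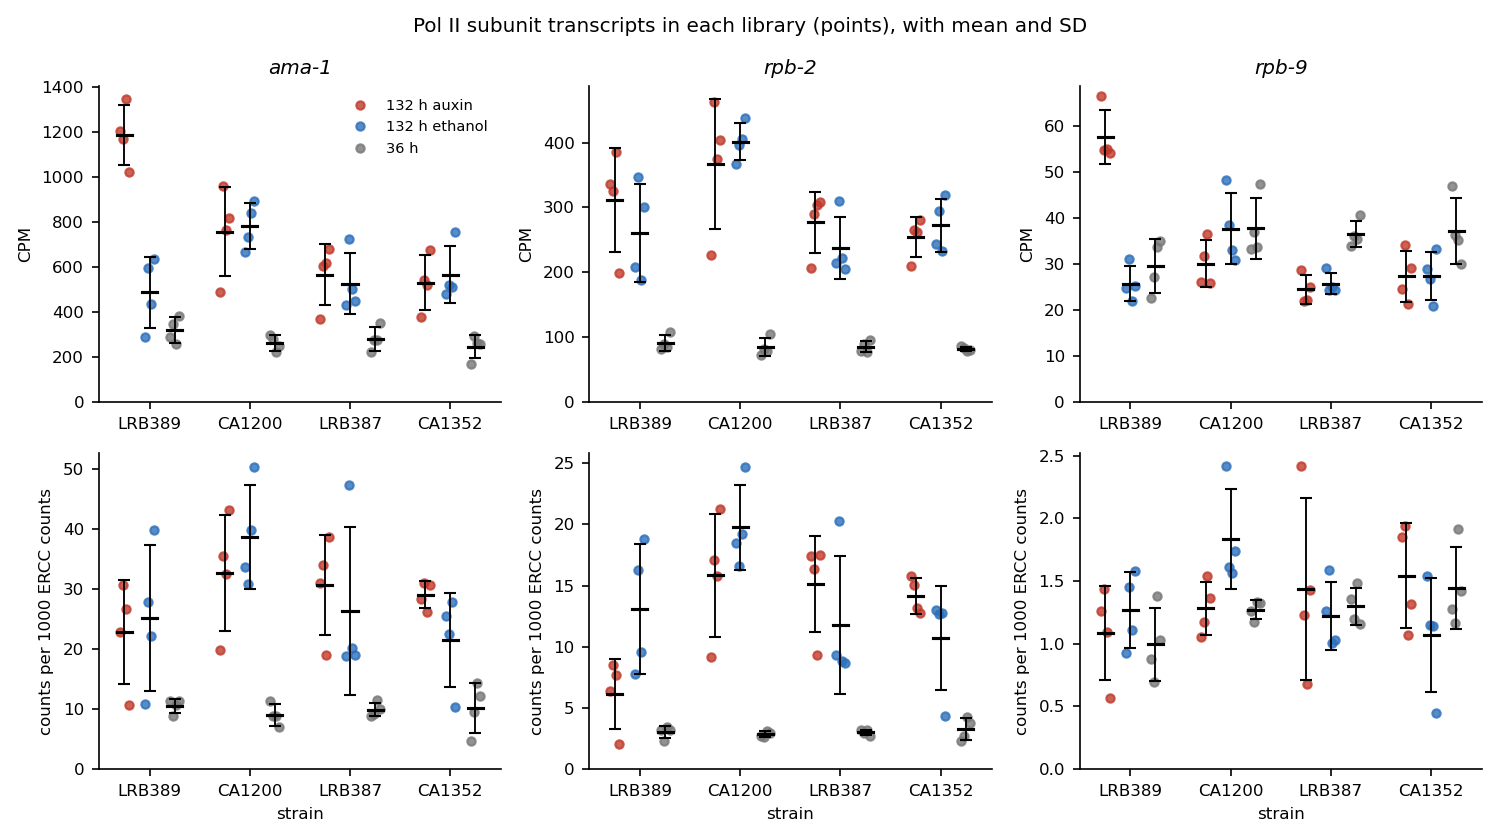
Levels of ama-1, rpb-2 and rpb-9 in each of the 48 libraries by strain, in CPM (top) and in counts per 1000 ERCC counts (bottom), with points for libraries and bars for the group mean and SD. In LRB389, every auxin library of ama-1 (1023 to 1347 CPM) and rpb-9 (54.1 to 66.3 CPM) stood above every ethanol library, whereas both genes overlapped per ERCC count.

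Whether the transcript of the degraded subunit changed was asked first by comparing auxin with ethanol in LRB389, the strain degraded in the soma. In mean CPM, ama-1 was 2.43 times as high in auxin as in ethanol. In the fit on the relative scale, which includes the spike-in factor, it rose about 2-fold, and of the other subunits only rpb-9 was called with it. Relative to the spike-ins neither was called, and 5 other subunits, rpb-2, rpb-3, rpb-5, rpb-7 and rpb-8, fell. So the 2 scales differ by a shift that covers most genes, and on both of them ama-1 and rpb-9 lay above the other members.

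ama-1 was counted at 1207, 1170.1, 1347 and 1023 CPM in the LRB389 auxin libraries, against 290.3, 594, 435 and 636 CPM in the LRB389 ethanol libraries. All auxin libraries lay above all ethanol libraries, and the group mean of 1187 ± 133 CPM (SD, n = 4) was the highest of the 12 groups. The fitted difference on the relative scale was 0.96 ± 0.26 log2 (SE; edgeR quasi-likelihood, adjusted p = 0.0040), a fold of 1.94 with 1.62 to 2.33 at 1 SE to each side. Without replicate 3 of every group it was 0.87 with an adjusted p of 0.078, and fitted on the libraries of this comparison alone it was 2.23 (adjusted p = 0.023). Per 1000 ERCC counts, ama-1 stood at 22.9, 30.7, 26.7 and 10.7 in auxin and 10.8, 27.9, 22.1 and 39.8 in ethanol. These ranges overlapped almost wholly, and the fitted difference per ERCC was −0.14 ± 0.34 log2 (adjusted p = 0.74). Its sign rested on replicate 4, since it was 0.40 (adjusted p = 0.37) without that replicate of every group and 0.09 without LRB389 auxin replicate 4 alone.

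rpb-9 encodes a small subunit that in yeast is not essential and takes part in start-site choice and, with TFIIS, in transcript fidelity. It was counted at 66.3, 54.7, 54.9 and 54.1 CPM in LRB389 auxin libraries, against 24.7, 30.96, 21.9 and 25.2 CPM in LRB389 ethanol libraries. No auxin library overlapped an ethanol library, and the difference of 0.92 ± 0.21 log2 on the relative scale was called (edgeR quasi-likelihood, adjusted p = 0.00066), but not in a fit on the libraries of this comparison alone (1.32, adjusted p = 0.19). Per 1000 ERCC counts it was at 1.26, 1.44, 1.09 and 0.564 in auxin and 0.923, 1.45, 1.11 and 1.58 in ethanol, a difference of −0.22 ± 0.35 log2 (adjusted p = 0.60).

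These 2 of 9 tested members compare with 13.3% of all tested genes called higher on the relative scale, where the median gene was at 0.11 log2. The other 7 members were not called on that scale and ran from −0.46 ± 0.23 log2 for rpb-8 to 0.48 ± 0.25 for rpb-4. rpb-4 and rpb-7 encode the stalk, a pair that sits beside the exit of the nascent RNA. rpb-4 was at 45.9, 55.5, 55.5 and 107 CPM in auxin and 29.97, 43.2, 33.3 and 31.4 CPM in ethanol. Its groups did not overlap, yet the fitted difference had an adjusted p of 0.15, and rpb-4 was called higher in a fit without the spike-in factor.

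Per ERCC, 5 of the 9 tested members were called lower in LRB389 auxin libraries, where 52.4% of all tested genes were called lower and the median gene was at −1.25 log2. The share of members is thus near that of all genes. rpb-8, whose product is shared by the 3 nuclear polymerases, had the lowest value of the 9, with 0.649, 1.06, 1.03 and 0.913 per 1000 ERCC counts in auxin against 1.99, 3.21, 1.98 and 2.98 in ethanol. The auxin libraries all lay below the ethanol libraries (−1.47 ± 0.33 log2, edgeR quasi-likelihood adjusted p = 0.00015).

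rpb-3, part of the pair on which the enzyme is assembled, was at 0.629, 0.948, 0.682 and 0.443 per 1000 ERCC counts in auxin and 1.05, 2.41, 1.40 and 1.93 in ethanol (−1.33 ± 0.35 log2, edgeR adjusted p = 0.00097). rpb-5, another subunit shared by the 3 polymerases, was at 1.93, 2.90, 2.45 and 1.46 in auxin and 3.95, 6.68, 5.25 and 5.85 in ethanol (−1.32 ± 0.34 log2, edgeR adjusted p = 0.00088). Neither gene's libraries overlapped between treatments. rpb-7 fell by 1.00 ± 0.35 log2 (edgeR adjusted p = 0.013), again without overlap, at 1.23 to 1.97 in auxin and 2.58 to 3.91 in ethanol.

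rpb-2 was at 6.36, 8.54, 7.66 and 2.07 per 1000 ERCC counts in auxin and 7.76, 16.3, 9.53 and 18.8 in ethanol. It was the one called member whose groups overlapped (−1.09 ± 0.34 log2, edgeR adjusted p = 0.0058). rpb-4 (−0.58 ± 0.35, adjusted p = 0.15) and rpb-12 (−1.02 ± 0.53, adjusted p = 0.091), a shared zinc-binding subunit, were not called. Without replicate 4 of every group 3 members were called per ERCC. Leaving out only LRB389 auxin replicate 4, the library with the highest spike-in share, left 5 called per ERCC and 2 on the relative scale. These refit counts were not set against all tested genes called under the same settings, so they are descriptions only.

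**Figure D2:**
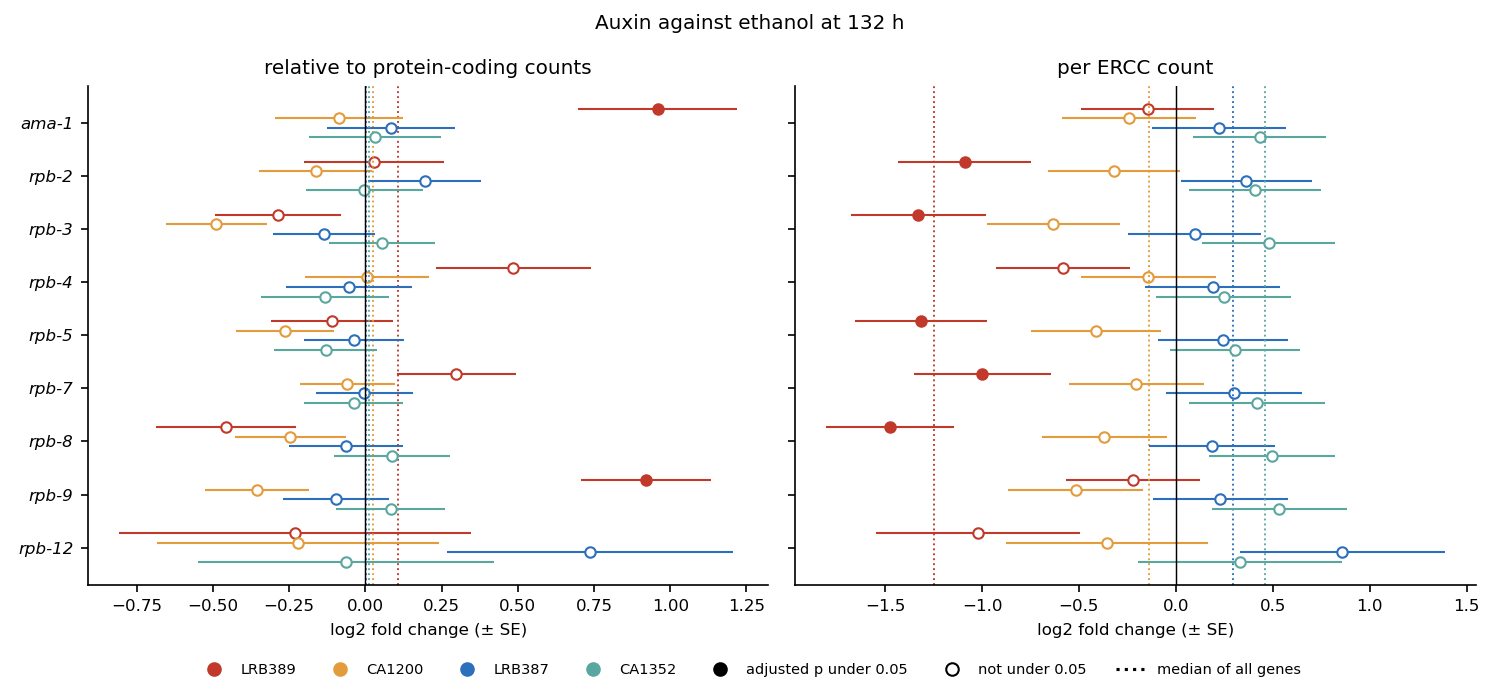
Fitted log2 difference between auxin and ethanol at 132 h for the 9 tested members in each strain, on the relative scale and per ERCC count, with bars of 1 SE. In LRB389 ama-1 (0.96) and rpb-9 (0.92) were called on the relative scale and neither was called per ERCC (−0.14 and −0.22), while in the other strains no member was called on either scale. Filled points were called, open points were not, and dotted lines mark the median of all tested genes.

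The levels of the members can also be set against each other inside a library, which needs no scaling and gives the same value in CPM and per ERCC count. These ratios are descriptions, and the 2 taken over rpb-2 were chosen after the values had been seen. Counts of ama-1 were 3.60, 3.60, 3.49 and 5.16 times those of rpb-2 in LRB389 auxin libraries, against 1.40, 1.71, 2.32 and 2.11 times in LRB389 ethanol libraries. The groups did not overlap. In LRB389 at 36 h the values were 3.58, 3.91, 3.05 and 3.57, and 3 of the 4 auxin libraries lay within that range, with replicate 4 above it. In the other groups at 132 h the mean ratio was 1.95 to 2.20, and in the other groups at 36 h it was 3.03 to 3.30. The LRB389 auxin mean of 3.96 lay above all of these.

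ama-1 made up 57.2% to 63.1% of all counts of the 10 members in LRB389 auxin libraries and 35.1% to 51.5% in LRB389 ethanol libraries. Taken as log2 counts of ama-1 minus the mean log2 counts of the 9 other members, the mean was 5.08 in auxin and 4.29 in ethanol, a difference of 0.79 with overlapping libraries. Without rpb-6, which is near 0, the difference was 0.92, and the libraries overlapped again. The 9 others summed to 705 to 803 CPM in auxin and 473 to 762 CPM in ethanol, and to 7.999 to 18.5 in auxin and 20.0 to 37.5 in ethanol per 1000 ERCC counts. Per ERCC count the sum of the others was thus lower in every auxin library, while in CPM the 2 groups overlapped.

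rpb-9 counts were 0.195 ± 0.0566 times those of rpb-2 in LRB389 auxin libraries and 0.102 ± 0.0182 times in LRB389 ethanol libraries (SD, n = 4 each). The ranges were 0.142 to 0.273 in auxin and 0.0837 to 0.119 in ethanol, so the groups did not overlap. At 36 h the LRB389 mean was 0.326, above that of auxin, and the other strains had means of 0.431 to 0.453 at 36 h and 0.0861 to 0.112 at 132 h.

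**Figure D3:**
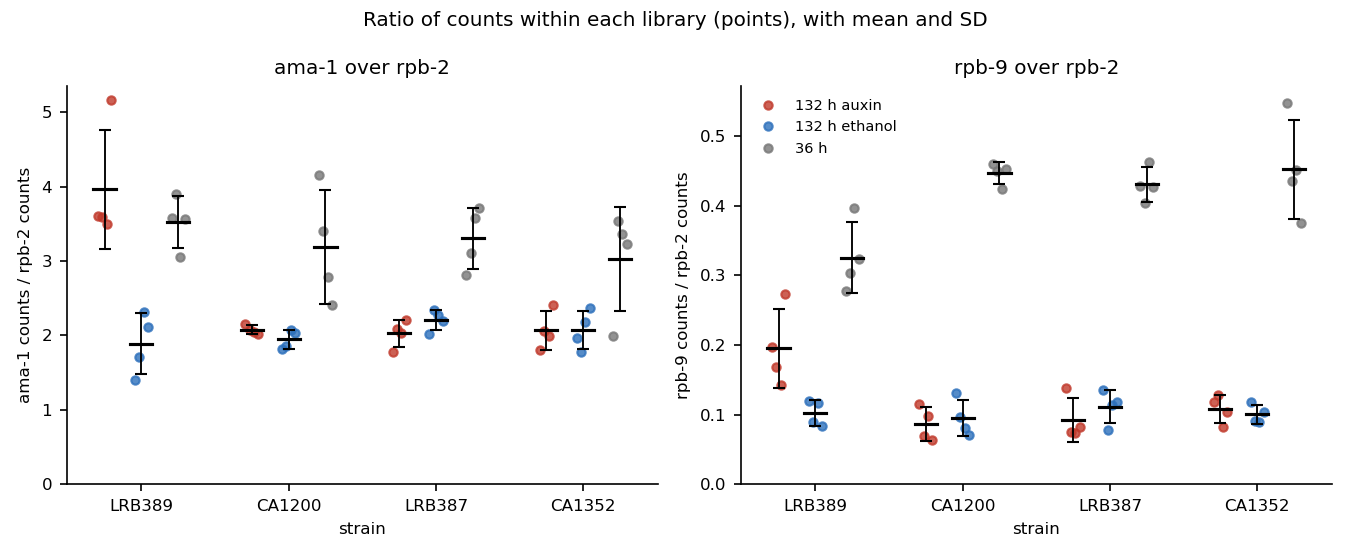
Ratio of ama-1 to rpb-2 counts and of rpb-9 to rpb-2 counts in each library, by group, with the group mean and SD. The 4 LRB389 auxin libraries sit at 3.49 to 5.16 for ama-1 over rpb-2, above the 1.40 to 2.32 of LRB389 ethanol libraries and 3 of them within the 3.05 to 3.91 of LRB389 at 36 h.

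CA1200 and CA1352, with an untagged ama-1, asked what auxin does by itself. LRB387, with the tagged ama-1 and germline TIR1, was counted beside them. ama-1 was at 489, 959, 767 and 817 CPM in CA1200 auxin libraries and 669, 733, 839 and 892 CPM in CA1200 ethanol libraries, and rpb-9 at 26.01, 31.8, 36.4 and 25.8 CPM in auxin and 48.1, 38.4, 32.9 and 30.9 CPM in ethanol. Both genes overlapped between the treatments in CPM. Per ERCC every auxin library of rpb-9 lay below every ethanol library, with means of 1.28 in auxin and 1.83 in ethanol per 1000 ERCC counts. rpb-3 was separated in the same direction on both scales, with means of 40.5 CPM in auxin and 55.3 CPM in ethanol, but neither gene was called. In CA1200, CA1352 and LRB387, edgeR called 0 of 9 members on either scale, as did DESeq2, and edgeR called 0% of all tested genes. At an unadjusted p under 0.05 there were 2 members, rpb-3 and rpb-9 in CA1200 on the relative scale, and 0 in the other 5 fits. Counts at an unadjusted p, here and below, stand without the share of all tested genes at that p and are descriptions only.

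In LRB387, where TIR1 is driven in the germline and the same ama-1 allele is tagged, ama-1 was at 368, 604, 616 and 679 CPM in auxin and 432, 723, 502 and 449 CPM in ethanol. The difference was 0.08 ± 0.21 log2 on the relative scale and 0.22 ± 0.34 per ERCC. The arrested L1 larva holds very few germ cells, and the level of ama-1 within them was not measured.

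Between the auxin groups alone, mean ama-1 in LRB389 was 1.57 times that in CA1200 in CPM and 0.70 times per ERCC count, which was not tested. The auxin effect in LRB389 minus that in CA1200 tests the difference between the strains itself. On the relative scale it was called for ama-1 (1.04 ± 0.33 log2, edgeR adjusted p = 0.018) and rpb-9 (1.28 ± 0.27 log2, edgeR adjusted p = 0.00037), 2 of 9 members beside 8.31% of all tested genes called higher. Without replicate 3 of every group the ama-1 value was 0.92 with an adjusted p of 0.17, and fitted on only the libraries compared rpb-9 was not called (1.44, adjusted p = 0.061). Per ERCC 0 of 9 members were called by edgeR, against 31.4% of all tested genes in either direction, and rpb-8 was nearest to the threshold (−1.10 ± 0.46 log2, adjusted p = 0.057). It was the 1 member called per ERCC by DESeq2, and at an unadjusted p under 0.05 edgeR also gave 1. For LRB387 against CA1352 the same difference was called for 0 of 9 members and 0% of genes by edgeR on both scales, with 0 members by DESeq2 and 0 at an unadjusted p under 0.05.

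The strains were next compared without auxin, since the tag is present throughout. At 36 h, ama-1 was at 290.2, 348, 258 and 384 CPM in LRB389 and 299, 279.8, 220.2 and 251 CPM in CA1200. The groups overlapped, and 0 of 9 members were called by edgeR on either scale, where 0.225% of genes were called on the relative scale and 0.0515% per ERCC. DESeq2 also called 0, and 1 member, rpb-9 on the relative scale, had an unadjusted p under 0.05. For LRB387 against CA1352, 0 of 9 members and 0.00643% of genes were called at 36 h and again in ethanol at 132 h on both scales. DESeq2 called 0 in these fits too, and rpb-8 at 36 h, on both scales, was the 1 member with an unadjusted p under 0.05.

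In ethanol at 132 h, LRB389 stood below CA1200 in 4 of 9 members on the relative scale, where 5.90% of genes were called lower. These were rpb-5 (−0.75 ± 0.16 log2, edgeR adjusted p = 0.0012), rpb-8 (−0.74 ± 0.18, adjusted p = 0.0044), rpb-3 (−0.61 ± 0.17, adjusted p = 0.0093) and rpb-2 (−0.56 ± 0.19, adjusted p = 0.039). ama-1 was at 489 ± 158 CPM in LRB389 and 783 ± 101 CPM in CA1200 (SD, n = 4 each), every LRB389 library below every CA1200 library, with a fitted −0.60 ± 0.21 log2 that missed the threshold (adjusted p = 0.0504). With the replicate number as a block it was called (−0.64, adjusted p = 0.0090). Without replicate 3 of every group 1 member was called and without replicate 1 there were 2, counts not set against all tested genes in those refits. Per ERCC 0 of 9 were called by edgeR or DESeq2, beside 0.379% of genes, and 2 members, rpb-5 and rpb-8, had an unadjusted p under 0.05.

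Time in starvation was followed in ethanol, 132 h against 36 h. Most polymerase subunits rose in every strain on both scales, rpb-5 the most among the members called in all 4 strains. rpb-9 was called higher in none. Both scales are relative, in CPM to the protein-coding count and per ERCC count to total RNA. The paper reports less total RNA per larva late in starvation than earlier. A rise per ERCC count is therefore not by itself a rise per larva, and levels per larva were not computed. On the relative scale 6 of 9 members were called higher in LRB389, 7 in LRB387, 8 in CA1200 and 7 in CA1352, where 15.2%, 17%, 20.5% and 18.8% of all tested genes were called higher. Per ERCC the counts of members were 8, 7, 8 and 7 in that order of strains, where 31.8%, 30%, 35.4% and 19.4% of genes were called higher. Without CA1352 ethanol replicate 4, whose spike-in share stood apart, 8 members were called per ERCC in CA1352, against 3 without replicate 1 of every group, 4 without replicate 2 and 3 in a fit on only the libraries compared. On the relative scale such a fit called 2 members in LRB389 and 4 in LRB387. The shares of all tested genes above belong to the main fits, and the refit counts were not set against shares of their own.

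rpb-5 was at 106, 142, 103 and 93.4 CPM at 132 h in LRB389 ethanol libraries and at 38.4, 32.2, 32.2 and 22.3 CPM at 36 h. In CA1200 it was at 210.4, 189.6, 218 and 170.5 CPM at 132 h in ethanol and 31.6, 18.5, 31.4 and 25.2 CPM at 36 h. The times did not overlap in either strain, with fitted differences of 1.59 ± 0.18 log2 in LRB389 (edgeR adjusted p = 9.6e-10) and 2.52 ± 0.18 in CA1200 (edgeR adjusted p = 5.5e-16). In LRB387 and CA1352 they were 1.83 ± 0.18 and 1.52 ± 0.17 log2.

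The fitted log2 difference of ama-1 on the relative scale was smaller than that of rpb-2 in every strain. For ama-1 it was 0.48 ± 0.24 in LRB389 (adjusted p = 0.13), 0.70 ± 0.23 in LRB387, 1.29 ± 0.23 in CA1200 and 0.77 ± 0.21 in CA1352, and for rpb-2 it was 1.34 ± 0.21, 1.23 ± 0.21, 1.94 ± 0.21 and 1.31 ± 0.19 in the same order. The difference between the 2 genes was not tested.

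rpb-9 was called lower on the relative scale in LRB387 and CA1352, and it was not called in LRB389 and CA1200. It was at 29.1, 24.2, 25.1 and 24.3 CPM at 132 h in LRB387 ethanol libraries and 33.9, 36.0, 35.5 and 40.5 CPM at 36 h, without overlap. The fitted differences on that scale were called in LRB387 (−0.76 ± 0.19 log2, edgeR adjusted p = 0.00098) and CA1352 (−0.87 ± 0.17, adjusted p = 6.5e-05), where 17.1% and 19.4% of genes were called lower. In LRB389 (−0.39 ± 0.19, adjusted p = 0.12) and CA1200 (−0.32 ± 0.18, adjusted p = 0.16) it was not called, but a fit without the spike-in factor called it lower in all 4 strains. Fitted on only the libraries compared it was not called in LRB387 (−0.71, adjusted p = 0.10) and stood at −0.03 in CA1200. Per ERCC it was called in none, at 0.34, −0.09, 0.53 and −0.44 log2 in LRB389, LRB387, CA1200 and CA1352.

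**Figure D4:**
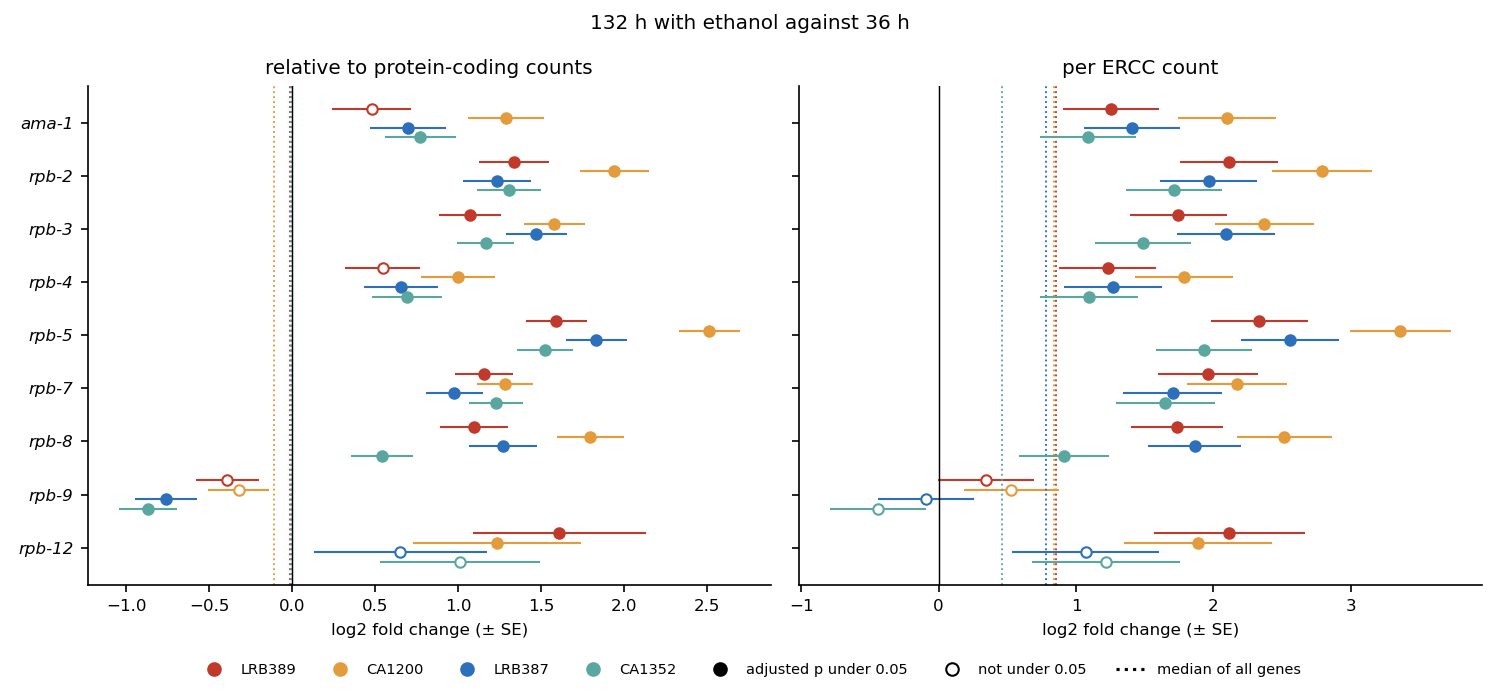
Fitted log2 difference between 132 h in ethanol and 36 h for the 9 tested members in each strain, on the relative scale and per ERCC count, with bars of 1 SE. On the relative scale rpb-5 lies at 1.52 to 2.52 and rpb-9 at −0.87 to −0.32, whereas per ERCC rpb-9 lies at −0.44 to 0.53, with filled points called and dotted lines at the median of all tested genes.

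LRB389 after auxin was also set against LRB389 at 36 h, before auxin was added. Here too, values per ERCC count are relative to total RNA and not to a larva. Since the paper reports that total RNA per larva falls late in starvation, a rise per ERCC count need not be a rise per larva. On the relative scale all 9 tested members were called higher at 132 h in auxin, by 0.53 to 1.48 log2, where 23.8% of genes were called higher. ama-1 was higher by 1.44 ± 0.22 log2 (edgeR adjusted p = 3.9e-07) and rpb-9 by 0.53 ± 0.17 (adjusted p = 0.011). Per ERCC 4 members were called higher beside 9.15% of genes, namely ama-1 (1.11 ± 0.35 log2, edgeR adjusted p = 0.0095), rpb-2 (1.02 ± 0.34, adjusted p = 0.015), rpb-5 (1.02 ± 0.34, adjusted p = 0.015) and rpb-7 (0.96 ± 0.35, adjusted p = 0.027). Without replicate 2 or without replicate 3 of every group these 4 dropped to 0 by edgeR, and on the relative scale a fit on only the libraries compared called 5 of the 9. These changes in count were not set against the change over all tested genes.

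Markers of cell types moved with the auxin difference in LRB389, and their part in the ama-1 and rpb-9 values was not tested. All 7 germ-cell markers were counted in every group and summed to 270.4 to 719 CPM in LRB389 auxin libraries and 156 to 247 CPM in LRB389 ethanol libraries. The 7 oocyte and yolk genes summed to 97.4 to 926 CPM (median 239) in LRB389 auxin libraries and 40.9 to 81.9 CPM in LRB389 ethanol libraries. This sum varied in untagged strains too, at 73.4 to 350 CPM in CA1352 ethanol, 40.4 to 218 in CA1352 auxin and 83.7 to 202 in CA1200 auxin. In LRB387 auxin it was 36.6 to 73.1 CPM. The 5 body wall muscle markers summed to 722 to 1171 CPM in LRB389 auxin and 1899 to 2893 CPM in LRB389 ethanol. Neuronal markers (5 genes) summed to 2473 to 3280 CPM in auxin and 2049 to 2762 CPM in ethanol, and those of intestine, hypodermis and pharynx overlapped between the treatments in CPM. Per 1000 ERCC counts, germ-cell markers overlapped, at 5.13 to 12.7 in auxin and 5.81 to 14.8 in ethanol, as did oocyte and yolk genes and pharynx. Markers of intestine (3.99 to 9.99 against 14.5 to 30.2), hypodermis (1.30 to 2.80 against 6.14 to 8.71), neurons and body wall muscle were then lower in every auxin library. Over time, the 4 intestinal markers stood at 208 to 481 CPM at 132 h in ethanol and 2463 to 3310 CPM at 36 h over the 4 strains. Body wall muscle markers stood at 1508 to 2893 and 3006 to 5025 CPM, and germ-cell markers at 151 to 247 and 28.4 to 123 CPM, in the same order. The other lists overlapped between the times in most strains. The part of these shifts in the subunit values over time was not tested. None of the markers of any list was at 0 in a whole group except perm-2 in LRB389 at 36 h. The fitted spike-in factor also differed, at a mean of 0.226 in LRB389 auxin libraries and −0.100 in LRB389 ethanol libraries.

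Other genes of the transcription machinery were read as whole lists. The remaining subunits, rpb-10 (0.55 ± 0.29 log2) and rpb-11 (0.40 ± 0.27), were not called in LRB389 auxin against ethanol on the relative scale. rpb-11, the partner of rpb-3, was higher at 132 h in ethanol in LRB389 by 1.61 ± 0.24 log2 (edgeR adjusted p = 6.3e-07). Of 10 tested subunits of polymerases I and III, 2 were called higher in LRB389 auxin on the relative scale, rpac-19 (0.97 ± 0.20 log2), shared by both enzymes, and rpc-11 (0.89 ± 0.33), and 0 were called lower, where 13.3% of all tested genes were called higher. The list's median was 0.16 log2, beside 0.11 for all genes. Per ERCC 7 of the 10 were called lower beside 52.4% of all tested genes, rpoa-1, the largest subunit of polymerase I, among them (−1.56 ± 0.35 log2).

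Of 35 general initiation factors, which place the polymerase at promoters, 11 were called higher and 1 lower in LRB389 auxin on the relative scale, with a median of 0.43 log2, where 13.3% of all tested genes were called higher. taf-1, the largest subunit of TFIID, was higher by 2.57 ± 0.21 log2 (edgeR adjusted p = 1.4e-13), and it was the 1 of the 35 called higher per ERCC (1.29 ± 0.35 log2), where 17 were called lower beside 52.4% of all tested genes. tbp-1, the TATA-binding protein, was higher by 1.00 ± 0.29 log2 on the relative scale and at −0.31 ± 0.38 per ERCC, not called. taf-2 was the gene called lower on the relative scale (−0.76 ± 0.22 log2). Of 4 tested genes whose products bind or dephosphorylate the C-terminal domain, the phosphatase genes fcp-1 (0.88 ± 0.20) and ssup-72 (1.41 ± 0.46) were called higher on the relative scale, and per ERCC 0 were called higher and 2 lower. These counts stand beside the same 13.3% higher on the relative scale and 52.4% lower per ERCC.

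Across the 12 group means of log2 CPM, and with no test since the groups share strains and times, rpb-2 and rpb-5 followed each other closely (Pearson r = 0.993) and so did ama-1 and rpb-4 (r = 0.978). rpb-9 stood apart, with r of −0.21 to 0.198 with the other tested members, the highest of them with ama-1, and 0.419 with the barely counted rpb-6. Of 7691 genes compared, those most like ama-1 were ubql-1, sig-7 and let-504, with r of 0.995, 0.9945 and 0.994. Most like the mean of the 9 other members were dxbp-1, mog-1 and sftb-1, all at 0.997 or just under. For rpb-9, added after its values had been seen, they were R02F2.1 (r = 0.946), abhd-12 (0.936) and gop-2 (0.9345).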

How the data were processed

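The authors aligned reads with Bowtie 1.2.2 to the WS273 genome with the ERCC sequences added, and counted them per gene with HTSeq 0.11.2. The deposited values are raw counts for 46911 genes and 92 spike-ins. HTSeq's strand setting is not given in the sources used here, and the 5 summary lines (no feature, ambiguous and the like) were left out. No library of a group was a duplicate of another. Library preparation used a number of PCR cycles that differed between batches, not given per library.

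The 15549 protein-coding genes (Ensembl release 115) whose count exceeded 10 in 4 or more libraries were tested with the edgeR 4.0.16 quasi-likelihood test in R 4.3.3, 12 groups in 1 fit of 48 libraries. The relative scale used upper-quartile factors and W1, the first factor of RUVg (k = 1) over 62 spike-ins. The per ERCC scale used the ERCC total as library size and no W1. SE is the log2 difference over the square root of F. Scripts were tested on simulated data. Alternatives were TMM, no W1, the likelihood ratio test, DESeq2 1.42.0, spike-in size factors, other filters (none, or more than 50 counts), a threshold of 0.01, only the libraries compared, a replicate block and leaving out each replicate.

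The members and lists were chosen with earlier results of these data known. All 10 members are named; other genes are named only from the lists or as the 3 genes most correlated with ama-1 or with the mean of the 9 others over the 12 group means of log2(CPM + 1), among genes with a mean of at least 10 CPM. The 3 for rpb-9 were added later. rpc-3 was not matched. Sequences are not shown.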

Additional observations from a re-analysis of the deposited data

Results flagged for a closer look

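Of 252 groups of 4 values tested, 19 held a library whose gap to the nearest of the others exceeded Dixon's 95% critical value, where chance gives about 1 in 20.

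In LRB389 auxin, replicate 4 had 106.7 CPM of rpb-4 (others 45.92 to 55.55), an ama-1 to rpb-2 ratio of 5.165 (others 3.493 to 3.598) and an ama-1 level of 4.535 log2 over the mean of the 9 others (others 5.245 to 5.283). Replicate 1 had 66.33 CPM of rpb-9 (others 54.1 to 54.89). In LRB389 ethanol, replicate 2 had 51.4 CPM of rpb-3 (others 27.48 to 30.74), and at 36 h replicate 2 had 31.32 CPM of rpb-8 (others 20.14 to 20.86).

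In CA1352 ethanol, replicate 4 had a spike-in share of 7.355% (others 1.83% to 2.312%), 756.5 CPM of ama-1 (others 478.3 to 521) and 4.344 counts of rpb-2 per 1000 ERCC counts (others 12.71 to 13.02). CA1352 auxin replicate 1 had 2.528 counts of rpb-3 per 1000 ERCC counts (others 1.568 to 1.732), and CA1352 36 h replicate 1 had ama-1 at 3.535 log2 over the mean of the 9 others (others 4.457 to 4.627).

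In LRB387 ethanol, replicate 2 had 309.4 CPM of rpb-2 (others 204.5 to 221.3). Per 1000 ERCC counts the same library had 47.37 counts of ama-1 (others 18.76 to 20.1), 20.27 of rpb-2 (others 8.662 to 9.302) and 2.323 of rpb-3 (others 1.452 to 1.55). Replicate 4 of that group had 60.26 CPM of rpb-7 (others 67.23 to 67.55), and LRB387 auxin replicate 3 had 9.338 counts of rpb-2 per 1000 ERCC counts (others 16.32 to 17.51).

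In CA1200, auxin replicate 1 had 30.67 CPM of rpb-3 (others 43.1 to 44.82), and 36 h replicate 4 had 26.73 CPM of rpb-4 (others 15.66 to 17.07).

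The auxin effect differed between LRB389 and CA1200 on the relative scale for ama-1, by 1.045 log2 (edgeR adjusted p = 0.018), and for rpb-9, by 1.275 log2 (edgeR adjusted p = 0.00037).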

How the results depend on the processing

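No direction of a called value was reversed under any alternative run, and 352 of 374 counts of called members stayed within 1.5 times. The counts in this section are of members only and were not set against all tested genes called under the same alternative. Fitting only the libraries compared leaves fewer libraries to estimate the spread, and on the relative scale it also moved the estimates. For LRB389 auxin against ethanol, ama-1 went from 0.96 to 2.23 log2 and rpb-9 from 0.92 to 1.32. Per ERCC, without W1, they stayed at −0.14 and −0.22. W1 was higher in every LRB389 auxin library than in every LRB389 ethanol library, and its part in these shifts was not tested. On the relative scale, fitting only the libraries compared called 1 member, ama-1, for LRB389 auxin against ethanol, against 2. It did so again for the difference from CA1200, against 2. It called 2, 4 and 5 for 132 h ethanol against 36 h in LRB389, the same in LRB387 and LRB389 auxin against 36 h, against 6, 8 and 9. Per ERCC it called 3 for CA1352 over time (against 7), 2 for LRB389 against CA1200 in ethanol (against 0) and 1 for the LRB389 to CA1200 difference (against 0). DESeq2 and the stricter filter also called 1 for that difference per ERCC.

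A threshold of 0.01 left 1 member for the difference from CA1200, since ama-1, at 1.04 log2, has an adjusted p of 0.018. Per ERCC it left 4 for CA1352 over time and 1 for LRB389 auxin against 36 h.

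Leaving out each replicate number in turn gave 1 to 2 members for LRB389 auxin against ethanol, 1 to 4 for LRB389 against CA1200 in ethanol and 1 to 2 for the difference from CA1200 on the relative scale. Per ERCC it gave 3 to 5 for LRB389 auxin against ethanol, 3 to 7 for CA1352 over time and 0 to 4 for LRB389 auxin against 36 h. The log2 value of ama-1 ran from 0.81 to 1.19 for LRB389 auxin against ethanol, and from 0.79 to 1.25 for its difference from CA1200.

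The strains were bleached in parallel, but the sources do not say that equal replicate numbers mark 1 preparation, so the numbers were not taken as pairs, and whether they share one is not settled here. Deviations of same-numbered libraries of other groups correlated at a mean of 0.048 (66 of 264 pairs above 0.1), those of other numbers at −0.016 (56 of 792), and 6 of 16 auxin and ethanol pairs of 1 strain and number were above 0.1. With a replicate block ama-1 was at 1.195 log2 in LRB389 auxin against ethanol (edgeR adjusted p = 5.6e-05). The block changed 1 call of a member, ama-1 in LRB389 against CA1200 in ethanol (−0.64, adjusted p = 0.0090, against −0.60 and 0.0504).

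Leaving out LRB389 auxin replicate 4 or CA1352 ethanol replicate 4, and the within-library level without rpb-6, were added after seeing the data. rpb-12, at 3 to 233 counts a library, is limited by depth. rpb-6, at 0 to 6 counts, had a mean of 0.352 CPM per kb against 21.4 for rpb-12 in the same libraries. Why rpb-6 was hardly counted was not tested.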
